A study of Mus musculus with 18 samples.

Results

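Cyclin E and cyclin A, the kinase CDK2 that they activate, and the genes that set the activity of this complex were examined in mouse mammary tumors and normal mammary glands. The 10 genes were Ccne1, Ccne2, Ccna1, Ccna2, Cdk2, Cdc25a, Cdkn1b, Fbxw7, Skp2 and Cks1b, chosen by symbol from the 55450 genes of the count table. Each matched 1 row, and all 10 passed the filter on low counts, which kept 19186 genes. Ccna1 passed it through 3 B1/P tumors and P/Rbf tumor 287822, so a count of members kept carries no weight for that gene.

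RNA was sequenced from 18 female C57Bl/6 mice, with 1 library per mouse. Tumors came from 5 B1/P/Rbf mice (Brca1 fl/fl, Trp53 fl/fl and 1 copy of the T121 transgene), 5 B1/P mice (Brca1 fl/fl and Trp53 fl/fl) and 5 P/Rbf mice (Trp53 fl/fl and the transgene), so all tumors carried the floxed Trp53 alleles. The 3 normal glands came from wild type mice of the same strain. T121 is an N-terminal piece of the SV40 large T antigen that binds and inhibits pRb, p107 and p130. It was driven by the keratin 18 promoter once Cre had acted, and Cre was delivered to the ducts of adult mice with an adenovirus (Ad5-CMV-Cre). The alleles could therefore be altered only in cells that the virus reached and in their descendants. Which cells of a tumor carried altered alleles was not measured here. Bulk RNA was measured, in which fewer cells of a type and less RNA per cell cannot be told apart. The T121 transcript was not analysed here.

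Cyclin E binds CDK2 late in G1 phase and starts DNA replication, and cyclin A takes over the kinase in S phase. CDC25A removes inhibitory phosphates from CDK2, while p27, the product of Cdkn1b, binds the cyclin-kinase complex and blocks it. SCF ubiquitin ligases end these states: FBXW7 is the F-box protein that recognises phosphorylated cyclin E, and SKP2 with its cofactor CKS1 recognises phosphorylated p27. The pRb family restrains E2F transcription factors, whose known targets include the cyclin E genes, Ccna2, Cdk2 and Cdc25a.

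The libraries held 27661173 to 37794889 expected counts. Trp53 was lower in each tumor group than in the glands, at 14.7 ± 4.68 CPM in B1/P/Rbf, 14.8 ± 7.48 CPM in B1/P and 10.8 ± 1.96 CPM in P/Rbf tumors against 61.5 ± 9.16 CPM in the glands (SD, n = 5, 5, 5 and 3). Brca1 averaged 15.3 ± 8.78 CPM in B1/P and 29.8 ± 8.97 CPM in B1/P/Rbf tumors, both above 5.45 ± 0.735 CPM in the glands, and 79.0 ± 32.7 CPM in P/Rbf tumors, whose Brca1 alleles were not floxed. These are counts over the whole gene, which do not show whether the floxed exons were lost, and so do not measure the deletion. The highest B1/P/Rbf value was 45.0 CPM, in tumor 208863. The study reports that PCR found the floxed alleles recombined in all of its mammary tumors. Its RT-qPCR, set against a P/Rbf tumor, showed loss of Brca1 expression in the Brca1 fl/fl tumors, only partial in 208863. No call of a member between groups changed without 208863. Brca1 was higher in P/Rbf than in B1/P tumors (adjusted p = 0.000845), whereas B1/P/Rbf against P/Rbf gave an adjusted p of 0.0903. Epithelial markers were detected in every group, with all 6 of the list present and the sum of their levels between 1380 and 1770 CPM in the glands and between 1600 and 8970 CPM in the tumors. Mouse numbers in the labels follow the groups, and B1/P is the only group that spans a wide range of them. A split between 246361 and 248662 gives a lower set, which holds the B1/P/Rbf tumors together with 225068, 225070 and 246361 of B1/P, and a higher set, which holds 248662 and 255232 of B1/P, every P/Rbf tumor and every gland. This split is 1 of several possible ones: the gap there is 2301, while larger gaps stand between 225070 and 246361 (21291) and elsewhere, and the labels name no batch. Values within each set are given where the groups allow it, with a term for the split moved to between 225070 and 246361 beside them.

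Promoters of the members were read to show what lies upstream of these genes. The RefSeq promoter table on GRCm38.p6 held 8 of the 10 members, and Ccne2 and Ccna2 had no entry. Windows of 300 bases, 250 before and 50 after the transcription start, were searched on both strands. The strings were TTTCGCGC and TTTGGCGC (forms of the E2F site), TTTGAA (the cell cycle genes homology region, CHR) and CCAAT. Printed here are Cdc25a and Cdk2, which were called higher in P/Rbf than in B1/P tumors, Ccne1, an E cyclin, and Cdkn1b, which encodes the inhibitor. Capitals mark the matches, on either strand, and bases inside the gene as GENCODE M21 annotates it are left out.
Cdc25a, chr9:109875329-109875578, plus strand: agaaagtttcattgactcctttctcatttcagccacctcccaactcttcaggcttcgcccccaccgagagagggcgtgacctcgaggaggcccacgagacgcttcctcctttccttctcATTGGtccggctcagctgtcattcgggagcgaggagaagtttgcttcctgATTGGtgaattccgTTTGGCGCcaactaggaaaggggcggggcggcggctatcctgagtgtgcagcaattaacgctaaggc
Cdk2, chr10:128705052-128705301, minus strand: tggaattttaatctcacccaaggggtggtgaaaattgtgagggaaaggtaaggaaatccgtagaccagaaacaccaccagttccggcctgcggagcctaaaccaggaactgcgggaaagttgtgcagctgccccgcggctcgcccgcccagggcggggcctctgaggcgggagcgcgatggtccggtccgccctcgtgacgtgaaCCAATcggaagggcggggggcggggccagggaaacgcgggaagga
Ccne1, chr7:38107535-38107740, minus strand: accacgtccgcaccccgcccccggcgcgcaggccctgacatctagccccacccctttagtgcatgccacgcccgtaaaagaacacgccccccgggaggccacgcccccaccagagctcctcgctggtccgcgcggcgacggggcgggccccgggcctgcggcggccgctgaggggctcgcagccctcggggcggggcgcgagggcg
Cdkn1b, chr6:134920151-134920400, plus strand: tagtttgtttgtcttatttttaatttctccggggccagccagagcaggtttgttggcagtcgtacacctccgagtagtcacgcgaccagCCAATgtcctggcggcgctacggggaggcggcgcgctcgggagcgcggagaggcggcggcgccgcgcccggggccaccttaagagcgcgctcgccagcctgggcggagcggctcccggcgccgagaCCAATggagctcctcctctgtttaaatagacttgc

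Of the 8 members, only Cdc25a held either E2F string searched, TTTGGCGC starting 67 bases upstream of the transcription start. Other forms of the E2F site were not searched, so a window without a match may still hold one. Either string was present in 0.813% of the 32851 windows in the table (TTTCGCGC in 0.323% and TTTGGCGC in 0.514%). CCAAT, which 37.4% of windows held, was found in Cdc25a, Cdk2, Cdkn1b, Ccna1, Cks1b and 1 of the windows of Skp2, and TTTGAA, held by 17.9%, in Cks1b and that window of Skp2. The Ccne1 window and the 3 Fbxw7 windows held none of these letters. No match overlapped a match of another motif. A match is a run of letters, and its use in these tumors was not measured.

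Between tumor groups, Ccne2 and Cdk2 were called higher in both groups with T121 than in the group without it, but a term for the set of mouse numbers ended 2 of these 4 calls, Cdk2 in B1/P/Rbf, whose log2 fold change went from 0.87 to 0.76, and Ccne2 in P/Rbf, which went from 0.99 to 0.47. In B1/P/Rbf against B1/P tumors, Ccne2 and Cdk2 rose and Fbxw7 fell, and the other 7 members did not pass the test. Thus 2 of 10 members were called higher, where 7.36% of the 19186 genes tested were, and 1 was called lower, where 9.29% were, and with the term for mouse numbers 4 were called higher, where 5.52% were, and 0 lower, where 6.92% were (edgeR's quasi-likelihood test, Benjamini-Hochberg adjusted p of at most 0.05 over all genes). Over the 9 members other than Ccna1 the median log2 fold change was 0.63, beside -0.06 over all genes, and 8 of these 9 values were above 0. DESeq2 and limma-voom each called 4 members higher and 1 lower, where they called 10.3% and 8.00% of all genes higher and 13.0% and 8.04% lower.

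In P/Rbf against B1/P tumors, Ccne2, Ccna2, Cdk2 and Cdc25a rose. That is 4 of 10 members called higher (1 of 10 with the term for mouse numbers, where 3.22% of all genes were), where 8.43% of all genes were, and 0 called lower, where 10.8% were. Of the members only Ccna1, whose test carries no weight, was lower at an unadjusted p under 0.05, and DESeq2 and limma-voom also called 0 lower, where they called 14.6% and 8.24% of all genes lower. The median was 0.78 over the 9 members other than Ccna1 and -0.05 over all genes. Both comparisons use the same 5 B1/P tumors, so they are not independent of each other.

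The groups with T121 were compared directly to see whether the floxed Brca1 alleles went with a difference. edgeR called 0 members higher, where 0.219% of all genes were, and 0 lower, where 0.0625% were. No member had an unadjusted p under 0.05, and DESeq2 and limma-voom called 0 as well. The smallest adjusted p was 0.326, for Ccna2, whose log2 fold change in B1/P/Rbf against P/Rbf tumors was -0.57 ± 0.28 (SE). The design does not show that the members are equal in these groups, since the SE of a member other than Ccna1 ranged from 0.23 to 0.35 on the log2 scale.

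**Figure D1:**
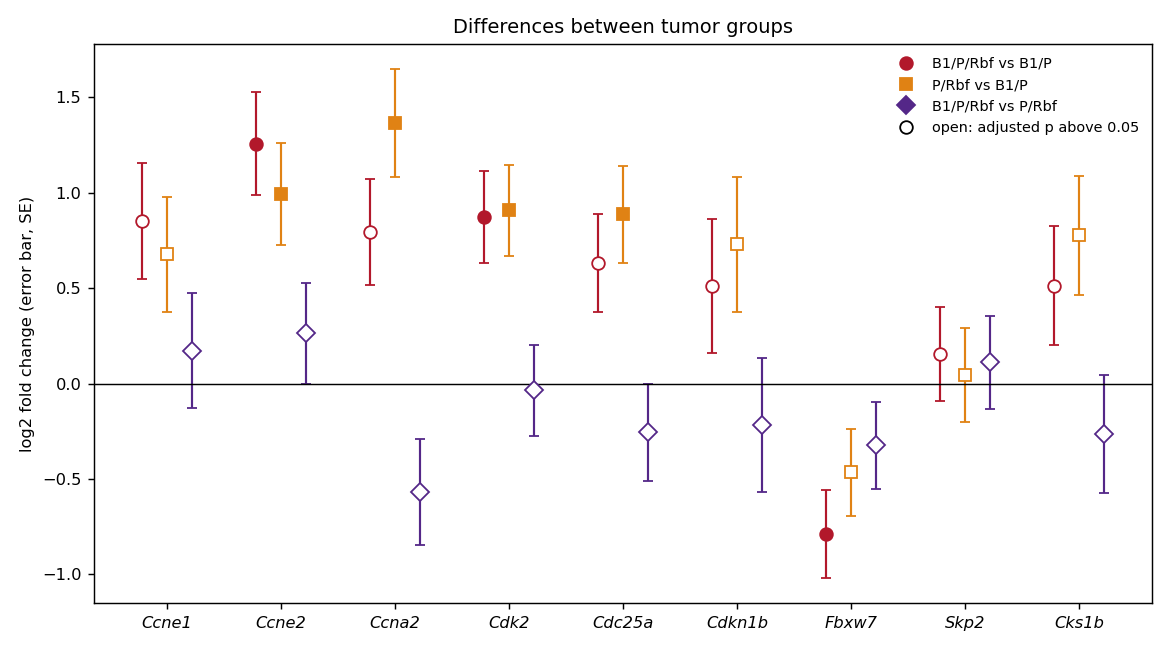
Log2 fold change (y axis) of 9 members (x axis) in the 3 comparisons between tumor groups, with SE as error bars and filled symbols for an adjusted p of at most 0.05. Ccne2 and Cdk2 are filled in both comparisons with B1/P tumors, Fbxw7 lies below 0 in all 3, and all symbols of B1/P/Rbf against P/Rbf are open. Ccna1, with few counts, is left out.

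Against normal gland, most members were higher in every tumor group. B1/P/Rbf tumors had 7 of 10 members called higher, where 17.1% of all genes were, and 0 called lower, where 20.0% were. B1/P tumors had 7 called higher, where 16.8% of all genes were, and 0 lower, where 16.9% were. Ccna1 is among these 7 and entered the test largely through the B1/P tumors in which it was high. The count to set against that share is therefore 6 of the other 9 members. P/Rbf tumors had 8 called higher, where 17.4% of all genes were, and 0 lower, where 20.3% were. No member was lower at an unadjusted p under 0.05 or by DESeq2 or limma-voom in any of the 3 comparisons. Over the 9 members other than Ccna1, the median log2 fold change was 2.10 in B1/P/Rbf, 1.58 in B1/P and 2.36 in P/Rbf tumors, beside 0.05, 0.12 and 0.05 over all genes. All 3 comparisons share the same 3 glands. Where values are given for the tumor groups in turn, the order is B1/P/Rbf, then B1/P, then P/Rbf. Without TMM scaling the median over all genes moved to 0.42, 0.47 and 0.33 and the split of calls from 3273 higher and 3835 lower to 5122 and 2887 in B1/P/Rbf, from 3232 and 3249 to 5126 and 2440 in B1/P, and from 3333 and 3897 to 4720 and 3159 in P/Rbf tumors.

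The glands also held far more RNA of other cell types. All 6 adipocyte markers and all 5 skeletal muscle markers were called lower in each tumor group: their summed levels were 18800 to 23300 CPM and 21800 to 42800 CPM in the glands, and 3.08 to 220.0 CPM and 0.92 to 581 CPM in the tumors. All 5 markers of proliferating cells were called higher in each tumor group, with a sum of 131 to 144 CPM in the glands, 749 to 1310 CPM in B1/P, 1310 to 2340 CPM in B1/P/Rbf and 1160 to 3420 CPM in P/Rbf tumors. None of these markers was at 0 in a whole group. Their part in the members' differences was not tested.

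**Figure D2:**
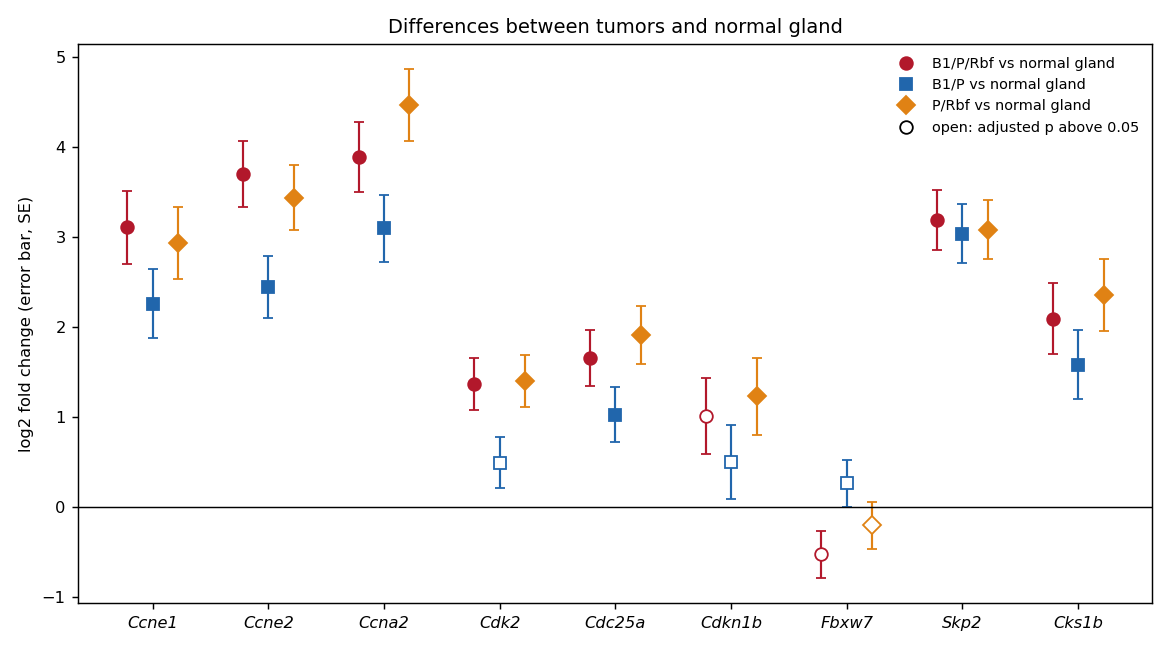
Log2 fold change (y axis) of 9 members (x axis) in each tumor group against the 3 normal glands, with SE as error bars and filled symbols for an adjusted p of at most 0.05. Both cyclin E genes, Ccna2, Skp2, Cks1b and Cdc25a are filled in all 3 groups, whereas Fbxw7 is open, between -0.52 and 0.27.

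Cyclin E1 is encoded by Ccne1 (chr7:38097984-38107534, minus strand, GRCm38). Ccne1 was at 28.96, 41.5, 38.1, 30.1 and 33.2 CPM (counts scaled to a common library size) in B1/P/Rbf and at 13.7, 47.1, 24.7, 27.5 and 39.4 CPM in P/Rbf tumors. In B1/P tumors it was at 15.8, 14.99, 11.5, 30.6 and 22.4 CPM, and in the glands at 3.87, 3.73 and 4.30 CPM. Every tumor lay above every gland. The B1/P/Rbf and B1/P tumors would be separate but for B1/P tumor 255232 at 30.6 CPM, while P/Rbf tumors ran from below most B1/P tumors to above all of them. The fold change of B1/P/Rbf against B1/P was 0.85 ± 0.30 on the log2 scale with an adjusted p of 0.0637, and that of P/Rbf against B1/P was 0.68 ± 0.30 (adjusted p = 0.123), neither past the threshold. The first passed without B1/P 255232 (adjusted p = 0.0252), in DESeq2 (0.0374), in limma-voom (0.0378) and with a term for the set of mouse numbers (0.0176), but not with the split moved (0.11). The other passed without B1/P 255232 (adjusted p = 0.0481) and without P/Rbf 287842 (0.0339). Its log2 fold change fell to 0.203 with the term for the set (adjusted p = 0.758) and to 0.201 within the higher mouse numbers (0.79). With the split moved it was 0.504 (0.345). Against gland Ccne1 rose by 3.11 ± 0.40, 2.26 ± 0.39 and 2.94 ± 0.40 in the 3 tumor groups in turn (adjusted p = 1.71e-05, 0.000285 and 2.81e-05).

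Cyclin E2, the other E-type cyclin, is encoded by Ccne2 (chr4:11191351-11204779, plus strand). Ccne2 was at 37.1, 48.7, 43.4, 62.04 and 61.7 CPM in B1/P/Rbf tumors and at 34.2, 37.8, 52.997, 30.01 and 55.7 CPM in P/Rbf tumors. The B1/P tumors had 15.9, 14.4, 14.6, 33.7 and 27.2 CPM, and the glands 3.48, 3.86 and 4.30 CPM. No B1/P/Rbf tumor overlapped a B1/P tumor, and 4 of 5 P/Rbf tumors lay above all B1/P tumors. Ccne2 rose in B1/P/Rbf against B1/P tumors by 1.26 ± 0.27 (SE, log2; adjusted p = 0.00505), and this call held in all 18 alternatives run. P/Rbf exceeded B1/P tumors by 0.99 ± 0.27 (adjusted p = 0.0167). That call was lost in a fit of the 2 groups alone (adjusted p = 0.0704), with a term for the set of mouse numbers (0.296, and 0.0893 with the split moved) and within the higher mouse numbers, where the fold change was 0.47 (adjusted p = 0.327). The order of the group means was B1/P/Rbf, P/Rbf, B1/P and gland, and the neighbours B1/P/Rbf and P/Rbf did not pass the test of their difference (0.26 ± 0.27, adjusted p = 0.682). Against gland Ccne2 rose by 3.70 ± 0.37 in B1/P/Rbf, 2.44 ± 0.34 in B1/P and 3.44 ± 0.36 in P/Rbf tumors, with adjusted p values of 1.17e-06, 5.01e-05 and 2.1e-06. Exons of Ccne2 share 609 bases with Ints8 on the opposite strand, and whether the counting used strand is not given in the sources used here.

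**Figure D3:**
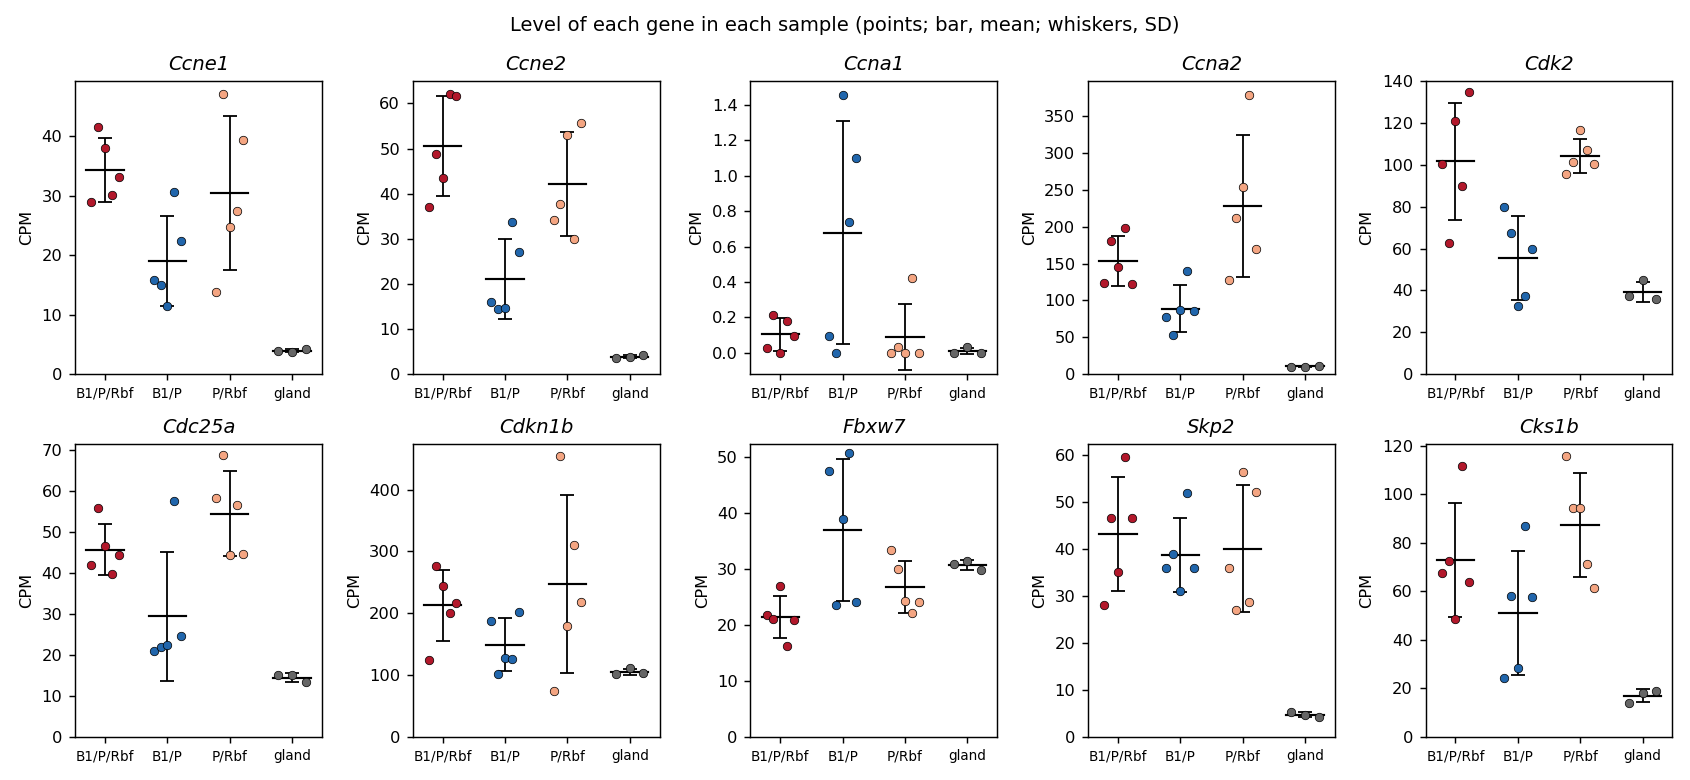
Level of each of the 10 members in CPM (y axis, from 0 in all panels but Ccna1) in each sample of the 4 groups (x axis), with the mean as a bar and the SD as whiskers. Points of the B1/P/Rbf and B1/P tumors do not overlap for Ccne2, and the 3 glands lie below every tumor for Ccne1, Ccne2, Ccna2, Skp2 and Cks1b.

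Cyclin A2 carries CDK2 through S phase and also binds CDK1, and its gene is Ccna2 (chr3:36564865-36572150, minus strand). In P/Rbf tumors Ccna2 was at 128, 211, 254, 379 and 170.0 CPM, and in B1/P/Rbf tumors at 124, 180.1, 146, 198 and 122 CPM. It was at 77.2, 53.5, 86.8, 139.9 and 86.1 CPM in B1/P tumors and at 10.01, 10.3 and 10.7 CPM in the glands. The P/Rbf tumors spread over the widest range, led by tumor 287822, and 4 of 5 lay above all B1/P tumors. Ccna2 rose in P/Rbf against B1/P tumors by 1.36 ± 0.28 (SE, log2; adjusted p = 0.004), and within the higher mouse numbers the difference was 1.01 (adjusted p = 0.13, and 0.0853 with a term for the set, which passed with the split moved, 0.023). B1/P/Rbf against B1/P gave 0.80 ± 0.28 (adjusted p = 0.0592), which passed without B1/P 255232 (adjusted p = 0.0216), in DESeq2 (0.0382) and with the term (0.0338), but not with the split moved (0.0553). Among all members the largest rises over gland were those of Ccna2 in P/Rbf and B1/P/Rbf tumors, 4.47 ± 0.40 and 3.90 ± 0.39, Ccna1 apart, and B1/P tumors rose by 3.10 ± 0.37 (adjusted p = 3.77e-07, 1.17e-06 and 1.02e-05). Exons of Ccna2 share 510 bases with Exosc9 on the opposite strand.

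Cyclin A1 is best known from the germ line, and its gene Ccna1 (chr3:55045469-55055501, minus strand) was close to the detection limit. In B1/P tumors it had 3, 0, 58, 25 and 35 counts, or 0.0954, 0, 1.46, 0.739 and 1.103 CPM. It had 1, 8, 0, 7 and 3 counts in B1/P/Rbf tumors, 0, 1, 0, 16 and 0 counts in P/Rbf tumors, and 0, 1 and 0 counts in the glands. Only 3 B1/P tumors (246361, 255232 and 248662) and P/Rbf tumor 287822 had more than 10 counts. Taking 3 counts per library as the floor, all glands were at or under it, and the mean of the B1/P tumors was at least 6.43-fold higher than that of the glands, taken at this floor. Means of the other tumor groups were under that floor of 0.106 CPM, so no fold is given for them. The edgeR call of Ccna1 in B1/P tumors against gland (adjusted p = 0.0441) is given as a description only. The gene passed the filter largely through those B1/P tumors. The call was lost without B1/P 246361 (adjusted p = 0.0703), 255232 (0.0571) or 248662 (0.0642), without gland 330154 (0.14), 330155 (0.0879) or 330156 (0.15), in limma-voom (0.0624), with no filter (0.059), with the term for the set (0.0578) and within the higher mouse numbers (0.0501). For the same reason tests of Ccna1 in other groups against B1/P tumors carry no weight. Without P/Rbf 287822 edgeR called Ccna1 lower in P/Rbf than in B1/P tumors (adjusted p = 0.016), a call that carries no weight either.

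Cdk2 (chr10:128697939-128705031, minus strand), the kinase that both cyclins activate, was at 101, 62.8, 121, 89.7 and 135 CPM in B1/P/Rbf and at 95.6, 102, 117, 107 and 100.2 CPM in P/Rbf tumors. It was at 80.04, 67.5, 32.7, 37.6 and 59.99 CPM in B1/P tumors and at 37.2, 44.9 and 35.99 CPM in the glands. The P/Rbf tumors were the most even of the tumor groups and all lay above the B1/P tumors, and 4 of 5 B1/P/Rbf tumors did so too, tumor 208857 being the exception. B1/P tumors spread around the glands, with 3 above and 1 below all of them. Cdk2 rose over B1/P tumors by 0.87 ± 0.24 (SE, log2) in B1/P/Rbf and by 0.91 ± 0.24 in P/Rbf tumors (adjusted p = 0.02 and 0.0151). The first call was lost without B1/P/Rbf 210906 (adjusted p = 0.0533), in a fit of the 2 groups (0.0642), with a term for the set of mouse numbers (0.0866 at a log2 fold change of 0.76, and 0.33 at 0.47 with the split moved) and within the lower mouse numbers (0.206). The second held within the higher mouse numbers (log2 fold change 1.09, adjusted p = 0.0148) and had an adjusted p of 0.0503 in a fit of the 2 groups. Against gland Cdk2 rose by 1.37 ± 0.29 in B1/P/Rbf and 1.41 ± 0.29 in P/Rbf tumors (adjusted p = 0.00144 and 0.00117), the first with an adjusted p of 0.097 with the term for the set and 0.295 with the split moved, while B1/P tumors differed by 0.50 ± 0.28 (adjusted p = 0.181), which passed without TMM scaling (0.0274). Cdk2 exons share 34 bases with Pmel on the opposite strand.

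Cdc25a (chr9:109875579-109893895, plus strand) encodes the phosphatase that releases CDK2 from inhibitory phosphorylation, and its promoter held the E2F match in capitals in the printed sequence. It was at 41.8, 55.8, 46.6, 39.8 and 44.4 CPM in B1/P/Rbf and at 58.2, 68.8, 44.3, 56.5 and 44.6 CPM in P/Rbf tumors. The B1/P tumors had 20.9, 22.04, 22.3, 57.5 and 24.6 CPM and the glands 14.97, 15.1 and 13.3 CPM. In B1/P, 4 tumors lay within 20.9 to 24.6 CPM, below every tumor with T121, and 255232 stood at 57.5 CPM, exceeded by 2 P/Rbf tumors. Cdc25a rose in P/Rbf against B1/P tumors by 0.89 ± 0.26 (SE, log2; adjusted p = 0.0235). The call was lost without B1/P 225068 (adjusted p = 0.0556), 246361 (0.0571) or 248662 (0.0513) and without P/Rbf 287845 (0.051), in a fit of the 2 groups (0.0952), with a term for the set of mouse numbers (0.37, and 0.119 with the split moved) and within the higher mouse numbers (log2 fold change 0.41, adjusted p = 0.446). The call held without B1/P 255232, 1 of the 2 B1/P tumors in the higher set (log2 fold change 1.28, adjusted p = 0.000513). B1/P/Rbf against B1/P tumors gave 0.63 ± 0.26 (adjusted p = 0.0987), and 1.02 without B1/P 255232 (adjusted p = 0.00188). Over all samples the adjusted p was 0.0374 in limma-voom, 0.0114 with the term and 0.0561 with the split moved. Against gland it rose by 1.66 ± 0.31, 1.03 ± 0.31 and 1.91 ± 0.32 in the 3 tumor groups in turn (adjusted p = 0.000589, 0.0158 and 0.000184), and the B1/P call was lost without gland 330156 (0.07) and in a fit of the 2 groups (0.0622).

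The inhibitor p27, encoded by Cdkn1b (chr6:134920401-134925513, plus strand), spread widely, above all in P/Rbf tumors. Its level was 124, 276, 245, 201 and 217 CPM in B1/P/Rbf and 74.3, 455, 179, 310.1 and 217 CPM in P/Rbf tumors. B1/P tumors had 187, 102, 128, 127 and 202 CPM, and the glands 102, 111 and 103 CPM. P/Rbf tumors held both the lowest value of all samples, in 287842, and the highest, in 287845. The B1/P/Rbf tumors lay above all glands, yet their difference from gland, 1.01 ± 0.42 (SE, log2), did not pass the test (adjusted p = 0.0676). It passed without B1/P/Rbf 208855 (0.0429), in DESeq2 (0.05), in a fit of the 2 groups (0.00939) and without TMM scaling (0.016). P/Rbf tumors rose over gland by 1.23 ± 0.42 (adjusted p = 0.0304), a call lost without P/Rbf 287845 (adjusted p = 0.0769) or 287822 (0.0531), without gland 330154 (0.0857), 330155 (0.0617) or 330156 (0.0898), in limma-voom (0.105), in a fit of the 2 groups (0.078) and with the stricter filter on low counts that the study describes (0.124). B1/P tumors differed from gland by 0.50 ± 0.41 (adjusted p = 0.364). Between tumor groups the adjusted p was 0.339 for B1/P/Rbf against B1/P, 0.152 for P/Rbf against B1/P and 0.816 for B1/P/Rbf against P/Rbf. The log2 fold change of P/Rbf against B1/P was 0.729. It became 1.01 without P/Rbf 287842 (adjusted p = 0.0266) and 0.389 without P/Rbf 287845 (0.42).

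Among the SCF genes, Fbxw7 (chr3:84815268-84979198, plus strand) encodes the receptor for phosphorylated cyclin E and also for MYC, JUN and NOTCH. It was the only member called lower in any comparison of the fit over all 18 samples. Fbxw7 was at 21.8, 20.96, 26.97, 16.3 and 20.9 CPM in B1/P/Rbf tumors and at 47.3, 23.5, 38.9, 50.6 and 24.1 CPM in B1/P tumors. P/Rbf tumors had 33.3, 29.9, 24.2, 22.1 and 24.1 CPM, and the glands 30.8, 31.4 and 29.7 CPM. Of the B1/P/Rbf tumors 4 lay below every B1/P tumor, and all 5 lay below the glands, while B1/P tumors fell on both sides of the glands. Fbxw7 fell by 0.79 on the log2 scale (SE 0.23) in B1/P/Rbf against B1/P tumors (adjusted p = 0.0263). The call was lost without B1/P/Rbf 208857 (adjusted p = 0.0545), 209490 (0.0621) or 210906 (0.0509), without B1/P 225068 (0.0644) or 255232 (0.0674), with no filter (0.0579), in a fit of the 2 groups (0.0924), with a term for the set of mouse numbers (0.0629, and 0.153 with the split moved) and within the lower mouse numbers (0.136). The fold change stayed between -0.91 and -0.65 in all alternatives run. P/Rbf against B1/P tumors gave -0.46 ± 0.23 (adjusted p = 0.156). Against gland the values were -0.52 ± 0.26, 0.27 ± 0.26 and -0.20 ± 0.26 in the 3 tumor groups in turn (adjusted p = 0.126, 0.461 and 0.576). The first of these passed in a fit of the 2 groups (0.0378), and the sign of the last turned without TMM scaling (0.07). Over the alternatives run, the first ranged from -0.617 to -0.156, with adjusted p values up to 0.653. The second ranged from 0.127 to 0.625, with a smallest adjusted p of 0.07.

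Skp2 (chr15:9111985-9155425, minus strand), the receptor for phosphorylated p27, was higher in every tumor than in every gland, and its values overlapped among the tumor groups. It was at 28.02, 46.6, 35.1, 59.6 and 46.5 CPM in B1/P/Rbf and at 35.8, 26.9, 56.2, 28.7 and 52.2 CPM in P/Rbf tumors. In B1/P tumors the values were 35.95, 38.9, 31.01, 51.9 and 35.8 CPM, and in the glands 5.35, 4.55 and 4.23 CPM. The lowest tumor, P/Rbf 287845 at 26.9 CPM, stood far above the highest gland. Skp2 rose over gland by 3.19 ± 0.33 in B1/P/Rbf, 3.04 ± 0.33 in B1/P and 3.08 ± 0.33 in P/Rbf tumors (SE, log2; adjusted p = 1.76e-06, 4.1e-06 and 2.33e-06). These calls held in all alternatives that tested Skp2. Between tumor groups the fold changes were 0.16 ± 0.25 for B1/P/Rbf against B1/P, 0.05 ± 0.25 for P/Rbf against B1/P and 0.11 ± 0.25 for B1/P/Rbf against P/Rbf, with adjusted p values of 0.704, 0.916 and 0.877.

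Cks1b (chr3:89415472-89418383, minus strand) encodes CKS1, which SKP2 needs to bind p27 and which also binds cyclin-dependent kinases. In B1/P/Rbf tumors it was at 67.5, 72.3, 48.5, 112 and 63.7 CPM and in P/Rbf tumors at 116, 94.3, 94.2, 71.3 and 61.1 CPM. B1/P tumors had 24.2, 57.8, 28.6, 86.7 and 57.5 CPM and the glands 13.95, 18.1 and 18.9 CPM. All tumors lay above the glands, and the lowest values among tumors were those of B1/P 225068 and 246361. Cks1b rose over gland by 2.10 ± 0.39, 1.58 ± 0.38 and 2.36 ± 0.40 (SE, log2) in the 3 tumor groups in turn (adjusted p = 0.000546, 0.00448 and 0.000211), and these calls held in all alternatives that tested it. P/Rbf against B1/P tumors gave 0.78 ± 0.31 (adjusted p = 0.0888), which passed without B1/P 255232 (0.0271). This fold change was 0.276 with the term for the set of mouse numbers (0.673) and 0.274 within the higher numbers (0.568). B1/P/Rbf against B1/P gave 0.51 ± 0.31 (adjusted p = 0.277), and 0.981 with the term (0.0582).

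Levels of different members can be set side by side only per length of the gene's exons. On the scale of CPM per kilobase, the order of the means in B1/P/Rbf tumors was Cks1b (64.6), Cdkn1b (46.7), Ccna2 (37.7), Cdk2 (16.4), Ccne2 (14.5), Ccne1 (12.9), Cdc25a (5.69), Skp2 (5.48), Fbxw7 (3.03) and Ccna1 (0.0566). In the glands it was Cdkn1b (23.1), Cks1b (15.1), Cdk2 (6.33), Fbxw7 (4.35), Ccna2 (2.53), Cdc25a (1.80), Ccne1 (1.49), Ccne2 (1.11), Skp2 (0.598) and Ccna1 (0.00594). Fbxw7 thus stood above both cyclin E genes and Skp2 in the glands and below them in B1/P/Rbf tumors. In P/Rbf tumors Fbxw7 (3.79) also stood below Ccne1 (11.5), Ccne2 (12.1) and Skp2 (5.07). In B1/P tumors Fbxw7 (5.23) stood below Ccne1 (7.16) and Ccne2 (6.05), and its mean was close to that of Skp2 (4.92). Skp2 was above Fbxw7 in B1/P 225070 (4.95 against 3.34) and 248662 (4.55 against 3.42), and below it in the other B1/P tumors.

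Ratios of a pair of members within a sample do not depend on library scaling, and they are given as a description, with no test. The log2 ratio of Skp2 to Fbxw7 counts was 0.36, 1.15, 0.38, 1.87 and 1.16 in B1/P/Rbf, 0.11, -0.15, 1.22, 0.37 and 1.11 in P/Rbf and -0.40, 0.73, -0.33, 0.04 and 0.57 in B1/P tumors, and -2.53, -2.79 and -2.81 in the glands. Every tumor lay above every gland, and the tumor groups overlapped. The log2 ratio of Ccne1 to Cdkn1b counts ran from -2.74 to -2.10 in B1/P/Rbf, from -3.57 to -2.05 in B1/P and from -3.49 to -2.43 in P/Rbf tumors, all above the glands at -4.89 to -4.58. For Ccna2 to Ccne1 the glands, at 1.32 to 1.46, lay below all tumors, which ran from 1.84 to 3.78, with the 3 highest values in P/Rbf tumors. The balance of the E cyclins, Ccne1 to Ccne2, was -0.36, -0.23, -0.19, -1.04 and -0.89 in B1/P/Rbf and -1.32, 0.32, -1.10, -0.12 and -0.50 in P/Rbf tumors. It ran from -0.34 to 0.06 in B1/P tumors and from -0.05 to 0.15 in the glands, so the widest spread was among tumors with T121.

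**Figure D4:**
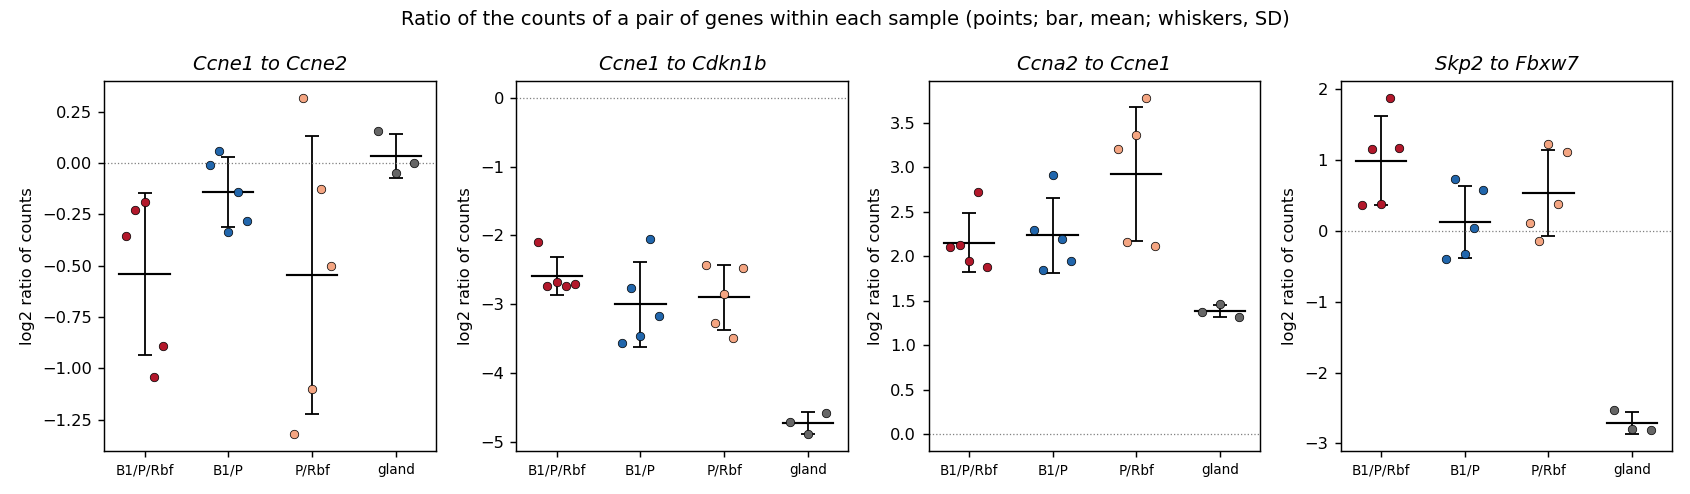
Log2 ratio of the counts of a pair of genes within each sample (y axis) for the 4 groups (x axis), with the mean as a bar and the SD as whiskers. Glands lie apart from all tumors for Ccne1 to Cdkn1b, Ccna2 to Ccne1 and Skp2 to Fbxw7, and the tumor groups overlap in every panel.

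Genes around the members were taken from lists of the pathway. Their counts are to be read against the share of all genes called. Of all genes, B1/P/Rbf tumors had 7.36% above and 9.29% below B1/P tumors at the threshold, and P/Rbf tumors had 8.43% above and 10.8% below them. Against gland the shares were 17.1%, 16.8% and 17.4% higher and 20.0%, 16.9% and 20.3% lower in the 3 tumor groups in turn. Of 22 substrates of CDK2 and genes of S-phase entry, 11 rose and 1 fell in B1/P/Rbf against B1/P tumors, and 13 and 1 in P/Rbf against B1/P, with medians of 0.855 and 0.92 beside -0.06 and -0.05 over all genes. The largest rises were those of Orc1 and Cdc6, which license replication origins: 1.67 ± 0.34, adjusted p = 0.00362 and 1.63 ± 0.31, adjusted p = 0.00255 in B1/P/Rbf, and 1.56 ± 0.34, adjusted p = 0.00525 and 1.47 ± 0.31, adjusted p = 0.00451 in P/Rbf tumors. Rbl2, encoding p130, fell in both (-1.15 ± 0.26, adjusted p = 0.00669 and -1.26 ± 0.26, adjusted p = 0.00391). None of the 22 was called in B1/P/Rbf against P/Rbf tumors. Against gland 20, 18 and 19 of the 22 were higher in the 3 tumor groups in turn and 2, 1 and 2 lower, led by Ticrr, a factor of replication initiation (4.85 ± 0.57, adjusted p = 6.41e-06 in B1/P/Rbf, 4.01 ± 0.55, adjusted p = 3.72e-05 in B1/P and 5.06 ± 0.58, adjusted p = 4.6e-06 in P/Rbf tumors). Rb1 was lower in each (-1.33 ± 0.35, adjusted p = 0.00636, -1.60 ± 0.35, adjusted p = 0.00196 and -0.93 ± 0.35, adjusted p = 0.0437).

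Of 20 other regulators of CDK2, 5 rose and 1 fell in B1/P/Rbf against B1/P tumors, and 8 and 1 in P/Rbf against B1/P, with medians of 0.56 and 1.01. Spdya, whose product Speedy A activates CDK2 without a cyclin, led both lists (2.10 ± 0.62, adjusted p = 0.0291 and 2.75 ± 0.64, adjusted p = 0.00744) at low levels of 1.12 ± 0.65, 1.76 ± 1.38 and 0.26 ± 0.19 CPM in B1/P/Rbf, P/Rbf and B1/P tumors. Next came Cdkn1a, encoding the inhibitor p21, in B1/P/Rbf (1.60 ± 0.32, adjusted p = 0.00314), and Cdc25b, a phosphatase of the CDC25 family, in P/Rbf tumors (1.67 ± 0.35, adjusted p = 0.00477). Cacul1, encoding a CDK2-associated cullin protein, fell in both (-0.84 ± 0.26, adjusted p = 0.0382 and -0.80 ± 0.26, adjusted p = 0.0433). Against gland 9, 6 and 9 of the 20 were higher and 4, 4 and 2 lower in the 3 tumor groups in turn. Cdc25c and Cdc20 rose most, Cdc25c by 5.05 ± 0.61, adjusted p = 8.12e-06 in B1/P/Rbf, 4.45 ± 0.59, adjusted p = 2.84e-05 in B1/P and 5.58 ± 0.63, adjusted p = 3.83e-06 in P/Rbf tumors. Ccng1, a known p53 target, fell most in each (-3.65 ± 0.24, adjusted p = 3.85e-08, -3.41 ± 0.24, adjusted p = 8.88e-08 and -3.01 ± 0.24, adjusted p = 1.32e-07).

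Of 17 genes of the SCF core, its cofactors and neddylation, 2 rose and 1 fell in B1/P/Rbf against B1/P tumors, and 3 and 1 in P/Rbf against B1/P. For 17 genes these counts are near the share of all genes called, and the medians were 0.08 and 0.34. Cks2, the paralog of Cks1b, was higher in both (0.63 ± 0.20, adjusted p = 0.0387 and 0.97 ± 0.20, adjusted p = 0.004). The F-box genes differed in direction: Fbxw11 was higher in B1/P/Rbf (0.88 ± 0.28, adjusted p = 0.0409), Ccnf was higher in P/Rbf (1.04 ± 0.24, adjusted p = 0.00733) and Btrc lower in P/Rbf tumors (-1.14 ± 0.28, adjusted p = 0.011). Skp1a, encoding the adaptor SKP1, fell in B1/P/Rbf against B1/P tumors (-0.76 ± 0.24, adjusted p = 0.041). Against gland 3, 4 and 4 of the 17 were higher and 3, 2 and 1 lower in the 3 tumor groups in turn, near the shares of all genes for those higher and near or below them for those lower. Ccnf and Cks2 rose in all 3, and Cdc34, encoding the ubiquitin-conjugating enzyme of SCF, fell in all 3 (-1.53 ± 0.26, adjusted p = 0.000213, -1.26 ± 0.26, adjusted p = 0.00127 and -1.12 ± 0.26, adjusted p = 0.0027).

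Of 15 genes upstream of p27, 2 were higher and 2 lower in each comparison with B1/P tumors, counts near the share of all genes, with medians of -0.17 and -0.04. Rnf123, whose product is a ubiquitin ligase of p27, was higher in both (0.76 ± 0.15, adjusted p = 0.00275 and 0.58 ± 0.15, adjusted p = 0.0122), and Src, whose product phosphorylates p27, was lower (-1.26 ± 0.27, adjusted p = 0.00496 and -0.79 ± 0.27, adjusted p = 0.0483). Against gland 4, 5 and 4 of the 15 were higher and 3 lower in each tumor group, the counts of lower genes being near the share of all genes. Of 9 other cyclins and CDKs tested, of 10 listed, 1 rose and 3 fell in B1/P/Rbf against B1/P tumors, and 2 and 3 in P/Rbf against B1/P, with medians of -0.06 and -0.05. Ccnb2, a mitotic cyclin, rose (0.98 ± 0.24, adjusted p = 0.0118 and 1.45 ± 0.25, adjusted p = 0.00135) and Cdk6, a partner of the D cyclins, fell (-3.75 ± 0.63, adjusted p = 0.00128 and -3.29 ± 0.62, adjusted p = 0.00243) in both. Ccnd1, encoding cyclin D1, fell most in B1/P/Rbf (-4.01 ± 0.71, adjusted p = 0.00172) and Ccnd2, encoding cyclin D2, in P/Rbf tumors (-3.66 ± 0.52, adjusted p = 0.000474). Against gland 4, 6 and 4 of the 9 were higher and 2, 0 and 1 lower. No gene of these 4 lists was called in B1/P/Rbf against P/Rbf tumors.

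The genes most like each member were found by the root mean square difference of log2 CPM, each gene centred on its mean, over the 18 samples. For Ccne1 they were Mms22l at 0.303, E2f1 at 0.374 and Blm at 0.379, beside an SD of Ccne1 itself of 1.14. For Ccne2 they were Mms22l at 0.329, Mcm4 at 0.365 and BC055324 at 0.367 (SD 1.33), so Mms22l came first for both E cyclins. Ccna2 was nearest to Ncapg at 0.242, Kifc1 at 0.281 and Ccnb2 at 0.289 (SD 1.54). The nearest to Cdk2 were Nemp1 at 0.299, Pip5k1c at 0.327 and 2700049A03Rik at 0.328 (SD 0.66), and to Cdc25a Usp1 at 0.268, Tipin at 0.281 and Nup62 at 0.294 (SD 0.749). The profile of Cdkn1b was nearest to Gm45737 at 0.375, Kif3b at 0.394 and Ccdc126 at 0.396 (SD 0.662), and that of Fbxw7 to Pip4p2 at 0.229, Smarcd1 at 0.236 and Peli1 at 0.261 (SD 0.411). For Skp2 they were Suv39h2 at 0.242, Mtbp at 0.273 and Hmgb2 at 0.418 (SD 1.19), for Cks1b Slc25a24 at 0.366, Kpna2 at 0.394 and Ttf2 at 0.40 (SD 0.922), and for Ccna1, with few counts, Trim61 at 0.862, Pabpc1l2b-ps at 0.980 and Plekha7 at 1.01 (SD 1.56). Among pairs of members the closest were Cdc25a with Cks1b (0.44) and Ccne1 with Ccne2 (0.448).

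Markers of other cells also differed among the tumor groups. Of 5 markers of proliferating cells, 2 were higher in B1/P/Rbf and 2 in P/Rbf against B1/P tumors, and of 6 epithelial markers 2 and 4 were, with summed epithelial levels of 2450 to 4840 CPM in B1/P/Rbf, 4640 to 8970 CPM in P/Rbf and 1600 to 3590 CPM in B1/P tumors. Fibroblast markers summed to 800.0 to 4640 CPM in B1/P/Rbf, 1210 to 3930 CPM in P/Rbf, 2450 to 12600 CPM in B1/P tumors and 1350 to 2550 CPM in the glands, with 0 of 6 called between B1/P/Rbf and B1/P and 2 lower in P/Rbf against B1/P. Of 5 macrophage markers 2 were lower in P/Rbf against B1/P. Of 5 skeletal muscle markers 3 were called lower in B1/P/Rbf and 4 in P/Rbf against B1/P tumors, and of 6 adipocyte markers 1 was higher in B1/P/Rbf and 1 lower in P/Rbf. The muscle markers summed to 4.51 to 22.5 CPM in B1/P/Rbf and 0.92 to 3.88 CPM in P/Rbf tumors. They summed to 581 CPM in B1/P tumor 248662 and to 1.42 to 9.14 CPM in the other 4 B1/P tumors, and 4 of the 5 B1/P/Rbf tumors lay above all of these 4, so a lower sum in B1/P/Rbf tumors rests on 248662 alone. That tumor is 1 of the 2 B1/P tumors in the higher set of mouse numbers. Macrophage markers summed to 69.3 to 279, 81.8 to 169, 123 to 617 and 82.3 to 129 CPM in the same order of groups, and endothelial markers to 93.5 to 293, 68.8 to 233, 92.4 to 243 and 339 to 378 CPM. Lymphocyte markers summed to 16.4 to 70.3, 14.0 to 50.3, 20.1 to 118 and 491 to 689 CPM. In B1/P the highest sums of fibroblast, macrophage and lymphocyte markers, 12600, 617 and 118 CPM, were all those of tumor 225070. That tumor had the lowest sum of proliferation markers in B1/P, 749 CPM, and the lowest value of its group for 5 members. No marker of these lists was at 0 in a whole group. Their part in the differences of the members was not tested.

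Within the lower mouse numbers, 5 B1/P/Rbf tumors were compared with 3 B1/P tumors, and 4 of 9 members tested were called higher, where 3.92% of all genes were: Ccne1 (log2 fold change 1.31, adjusted p = 0.0191), Ccne2 (1.78, 0.00854), Ccna2 (1.11, 0.0387) and Cdc25a (1.10, 0.0181). Within the higher mouse numbers, 5 P/Rbf tumors were compared with B1/P tumors 248662 and 255232, and 1 of 10 members, Cdk2, was called higher, where 3.93% of all genes were. With a term for the split moved to between 225070 and 246361, Ccne2 alone was called in B1/P/Rbf against B1/P tumors (1.74, adjusted p = 0.0113), where 2.55% of all genes were called higher, and Ccna2 (1.13, 0.023) and Cdk2 (1.26, 0.00387) in P/Rbf against B1/P, where 6.34% were. The fold changes of Ccne1, Ccna2 and Cdc25a in B1/P/Rbf tumors were close with either split, at 1.28, 1.09 and 1.07 with the first and 1.16, 1.24 and 1.09 with the moved one, so that these calls were lost at similar sizes. B1/P 255232 had the highest value of its group for 7 of the 10 members, and its markers of proliferating cells summed to 1310 CPM, also the highest of the group. B1/P against gland could be compared within the higher numbers too, where 6 of 10 members were called higher beside 13.5% of all genes. P/Rbf tumors and glands all had higher numbers. No B1/P/Rbf tumor shares a set with P/Rbf tumors or glands, so these comparisons cannot be made within a set. A term for the set can be fitted only through the B1/P tumors, which fall in both, and that fit called 0 members against P/Rbf and 6 higher against gland, where 0.0156% and 9.26% of all genes were.

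**Figure D5:**
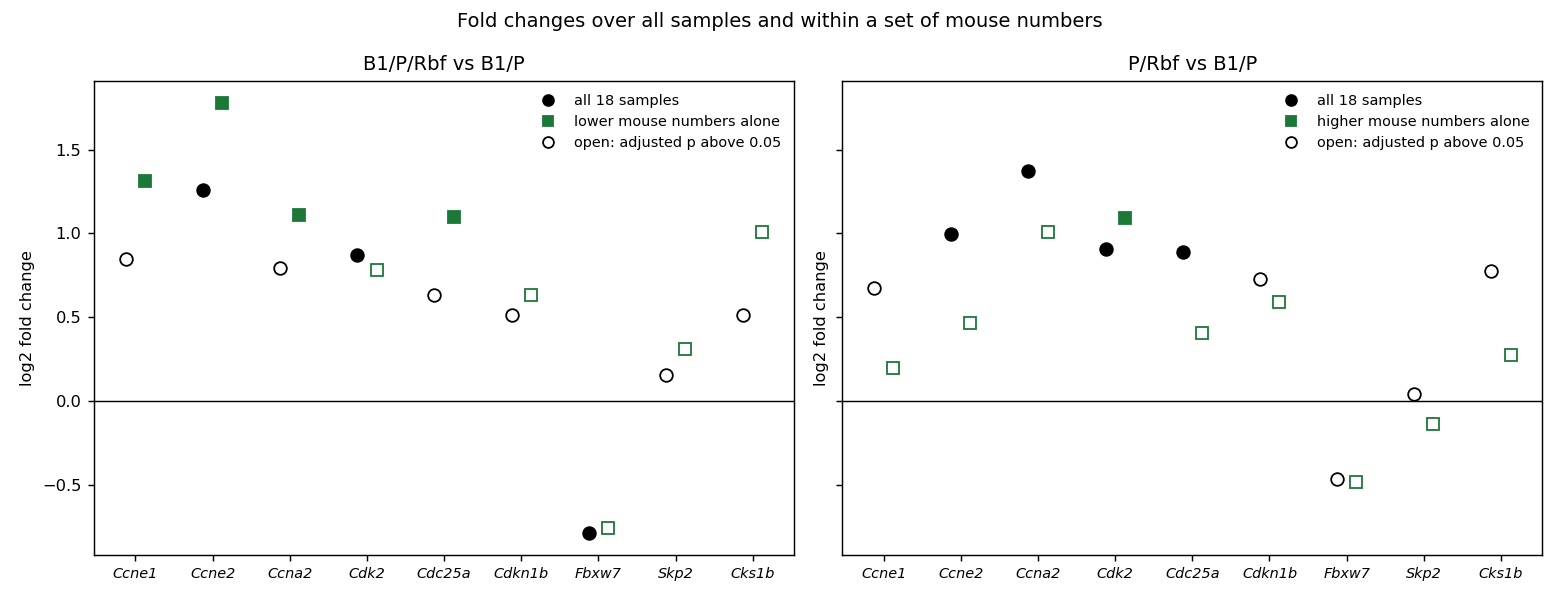
Log2 fold change (y axis) of 9 members (x axis) against B1/P tumors over all 18 samples (circles) and within 1 set of mouse numbers (squares), with filled symbols for an adjusted p of at most 0.05. Within the lower numbers the values of both cyclin E genes and of Cdc25a in B1/P/Rbf tumors lie higher than over all samples, and within the higher numbers the values of both cyclin E genes and of Cdc25a in P/Rbf tumors lie lower.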

How the data were processed

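RNA of 15 tumors and 3 normal glands was sequenced as stranded mRNA libraries in pairs of reads. Per the study's methods and the submitters' processing notes, the authors trimmed reads with Cutadapt 1.18 and made the deposited values, expected counts per gene, with RSEM 1.3.0. The methods name a human reference, while the identifiers in the deposited table belong to the mouse annotation GENCODE M21 (GRCm38), and the reference used for counting is otherwise not given in the sources used here. Of all values 5.61% were not whole and were rounded, and no member had a fractional count. Depth ran from 27661173 to 37794889 counts (median 33802255).

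Genes were filtered with filterByExpr (minimum count 10), which kept 19186 of 55450, and scaled by TMM. CPM are counts per 1e+06 of the library size after this scaling. A single edgeR 4.0.16 quasi-likelihood fit of the 18 samples in R 4.3.3 gave 6 contrasts, with Benjamini-Hochberg adjustment over all genes kept and a threshold of 0.05. The SE of a log2 fold change was its size divided by the square root of the F statistic. Each comparison was rerun with DESeq2 1.42.0, with limma 3.58.1 (voom, quantile normalization), without TMM, with no filter, with the study's filter (6 or more samples at a log2 CPM of 6 or above), on the 2 groups alone, with a term for the set of mouse numbers, and without each sample in turn. Fits within 1 set of mouse numbers, and a term for the split moved to between 225070 and 246361, were chosen after seeing the data. The scripts were tested on simulated data.

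The members, gene lists and tests were chosen with earlier results of these data known. Named genes are the 10 members, from each list up to 2 called genes that rose most and 2 that fell most, the 3 genes most like each member, and the targeted genes. Promoters came from the RefSeq table on GRCm38.p6, and gene positions from GENCODE M21. The likeness of profiles used log2 CPM with a prior count of 2.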

Additional observations from a re-analysis of the deposited data

Results flagged for a closer look

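Of 30 sets of member values, each from a tumor group of 5 samples, 2 had a highest sample whose gap to the next, divided by the range of the group, was above Dixon's 95% critical value. A chance rate of about 1 in 20 sets holds for normally distributed values. It need not hold for CPM, least of all for counts near 0 as in Ccna1. Cdc25a was at 57.5 CPM in B1/P tumor 255232, while the other 4 B1/P tumors had 20.9 to 24.6 CPM. Ccna1 was at 0.421 CPM in P/Rbf tumor 287822, while the other 4 P/Rbf tumors had 0 to 0.0315 CPM.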

How the results depend on the processing

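No paired analysis was possible because each mouse gave 1 sample and the labels tie no sample of a group to a sample of another. Of 1008 recomputed member fold changes over 60 pairs of member and comparison, 898 kept their direction and side of the threshold, 52 lost a call, 24 gained a call and 34 turned their sign, none of the last for a member called in that comparison. In B1/P/Rbf against B1/P tumors the 3 members called (7.36% of all genes higher and 9.29% lower) became 5 in DESeq2 (10.3% and 13.0%) and in limma-voom (8.00% and 8.04%), 1 with the study's filter (4 members tested; 9.80% and 9.67%), 1 in a fit of the 2 groups (5.86% and 6.46%) and 1 with the term for mouse numbers split between 225070 and 246361 (2.55% and 4.06%), and ran from 1 (without B1/P/Rbf 210906) to 5 (without B1/P 255232) when each sample was left out. In P/Rbf against B1/P tumors the 4 called, all higher beside 8.43% of all genes, became 2 with the study's filter (9.56%) and with that moved split (6.34%), and 1 each in a fit of the 2 groups (3.90%), with the term for mouse numbers (3.22%) and within the higher mouse numbers (3.93%), and ran from 3 to 6 with samples left out. Against gland the study's filter, which tests 4 members, called 3, 2 and 3 higher, beside 19.8%, 18.1% and 18.0% of all genes, in place of 7, 7 and 8 in the tumor groups in turn, or 7, 6 and 8 of 9 leaving Ccna1 out.

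Signs turned only for members not called in that comparison. Skp2 in P/Rbf against B1/P tumors was -0.0586 in limma-voom, -0.0247 without TMM, -0.135 with the term for mouse numbers and -0.136 within the higher numbers, and ran from -0.11 to 0.172 with samples left out. In B1/P/Rbf against P/Rbf tumors the term gave Ccna2 0.0707, Cdc25a 0.664, Cdkn1b 0.0225 and Cks1b 0.705, the moved split gave Ccna2 0.104, Cdc25a 0.444 and Cks1b 0.226, limma-voom gave Cdk2 0.0137 and Cdkn1b 0.0521, and Cdk2 was 0.0559 without TMM and 0.0665 with the study's filter. With samples left out of that comparison, Ccne1 ran from -0.0262 to 0.384, Ccna1 from -0.269 to 3.27, Cdk2 from -0.156 to 0.0987, Cdkn1b from -0.461 to 0.123 and Skp2 from -0.0328 to 0.266. Fbxw7 in P/Rbf tumors against gland was 0.068 without TMM, and fitted values of Ccna1 in that comparison ran from -0.439 to 4.74, which with its counts near 0 are no measure of size, and the moved split turned Ccna1 to 1.1 in B1/P/Rbf against B1/P tumors. The study's filter tests fewer genes, and leaving samples out lowers their number, while the cause of the other changes was not tested. Calls over all genes were 3195 (886 to 4413 over the alternatives), 3684 (867 to 5027) and 54 (0 to 1026) in the comparisons of B1/P/Rbf with B1/P, P/Rbf with B1/P and B1/P/Rbf with P/Rbf, and 7108 (1763 to 8780), 6481 (1601 to 7566) and 7230 (1668 to 8125) against gland in turn. Depth limits Ccna1 alone among the members, whose floor was 3 counts per library.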
